A study of Mus musculus with 24 samples.

Results

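The large (60S) subunit of the mouse ribosome is described here by the mRNAs of its proteins. The gene set holds 51 genes, chosen by symbol from a table of 54242: 45 canonical proteins (Rpl3 to Rpl41, Rplp0, Rplp1 and Rplp2) and 6 paralogs (Rpl3l, Rpl7l1, Rpl10l, Rpl22l1, Rpl36al and Rpl39l). Pseudogenes were not chosen. All 51 passed the filter on low values, among 16447 genes of the table that did.

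RNA-seq was made from CGR8 cells, a line of mouse embryonic stem cells (ESCs), in 24 libraries, 3 in each of 8 groups. Cells were transfected with a control siRNA (si-CTL) or with siRNAs against Rsl24d1 (si-Rsl24d1), and were kept as ESCs with serum and LIF (day 0) or treated with 10 nM retinoic acid (RA) for 4 days (day 4). Groups without rescue are labelled as carrying an empty vector, and groups with rescue as carrying an RSL24D1 overexpression vector and receiving doxycycline, in both siRNA arms. The methods describe the rescue line as a puromycin-selected pool with an siRNA-resistant Rsl24d1 reading frame. Nothing says whether the 3 libraries of a group came from separate cultures, so the p-values measure the spread between these libraries, which may be technical. Labels give both 48 h and 72 h after transfection, and they differ from the methods on the library kit and on LIF during RA treatment.

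Each large subunit carries a single copy of nearly all of its proteins, which join the ribosomal RNA in order from the nucleolus to the cytoplasm. The mRNAs are among the most abundant of a growing cell, and most begin with a 5′ terminal oligopyrimidine (TOP) tract through which their translation is regulated together. RSL24D1 is a homologue of RPL24 that occupies the place of RPL24 on precursors of the 60S subunit and is exchanged for it in the cytoplasm. Some paralogs are known mainly from certain tissues, RPL3L from striated muscle and RPL39L and RPL10L from male germ cells. The mRNAs of Rpl39l and Rpl10l were nevertheless present in all 24 libraries here, at day 0 as well as day 4. RPL22 protein is known to repress the Rpl22l1 gene.

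Values are log2(TPM + 1) as deposited, where TPM, a share of all transcripts, is already per transcript length. Levels of different genes can then be compared, except where near-identical copies share the reads of a gene, as described below for 16 members. A gene is said to pass where the adjusted p was below 0.01 from limma across all 16447 tested genes, and differential expression here adds a change over 1.8-fold (0.848 on the log2 scale). The number of reads behind each library is unknown. Rsl24d1 mRNA itself was at 7.15 ± 0.06 (mean ± SD of log2(TPM + 1), n = 3) with si-CTL and 5.20 ± 0.11 with si-Rsl24d1 at day 0 without rescue. At day 4 without rescue the level was 6.63 ± 0.04 in si-CTL and 6.59 ± 0.08 in the cells labelled si-Rsl24d1, so the targeted mRNA was not lower in the latter when the RNA was taken. The symbol cannot separate endogenous from ectopic transcripts. Of 7 ESC markers, 5 were at lower mean levels in si-CTL cells without rescue at day 4 than at day 0: Pou5f1 (9.02 against 10.12), Sox2 (7.42 against 8.14), Zfp42 (8.85 against 9.32), Esrrb (6.56 against 7.28) and Klf4 (3.94 against 4.78). The other 2, Dppa5a (12.38 against 11.36) and Nanog (8.32 against 7.53), were at higher ones. Summed TPM of 5 fibroblast markers ranged from 19.6 to 44.7 over the day 0 libraries and from 76.5 to 186.9 over the day 4 libraries. They did not move together in si-CTL cells without rescue. Thy1 was lower at day 4 (1.45 against 2.89), while Col1a1 (5.23 against 4.50) and Col1a2 (5.44 against 3.48) were higher. Dcn (1.48 against 0.19) and Lum (0.11 against 0.01) were higher as well, with Lum near the floor. The part of these markers in the results was not tested.

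The start sites of members are shown because the TOP tract is what these mRNAs are best known to share. RefSeq promoter sequences (GRCm38.p6) matched 40 of the 51 members by symbol, with 47 start sites. A tract, taken as a C followed by at least 4 bases that are each C or T on the transcribed strand only, could be read from the first base of an annotated transcript in 7 members (17.5%), against 3.01% of 27025 symbols with an entry. The tract began within 10 bases of a start in 23 members (57.5%), against 32.6% of all symbols. Windows run from 10 bases before the start to base 20 of the transcript, and capitals mark the tract. Rpl35, Rpl15, Rpl38 and Rplp2 are shown as members with a tract at the start, and Rpl22l1, Rpl22, Rpl39l and Rpl39 as the paralogs with the widest changes and their parents.
Rpl35 (chr2:39005112-39005141, minus strand): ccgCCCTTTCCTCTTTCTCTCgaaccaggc
Rpl15 (chr14:18270967-18270996, minus strand): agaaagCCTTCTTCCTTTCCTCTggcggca
Rpl38 (chr11:114668570-114668599, plus strand): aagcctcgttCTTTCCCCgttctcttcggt
Rplp2 (chr7:141447641-141447670, plus strand): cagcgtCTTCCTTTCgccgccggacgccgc
Rpl22l1 (chr3:28805498-28805527, plus strand): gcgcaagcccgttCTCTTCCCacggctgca
Rpl22, upstream start (chr4:152324426-152324455, plus strand): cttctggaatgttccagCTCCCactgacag
Rpl22, downstream start (chr4:152325716-152325745, plus strand): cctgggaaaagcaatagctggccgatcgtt
Rpl39l (chr16:10170218-10170247, plus strand): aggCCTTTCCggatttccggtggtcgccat
Rpl39 (chrX:37085203-37085232, minus strand): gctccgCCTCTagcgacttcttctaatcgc
Rpl22l1, Rpl39l and Rpl39 each hold a tract near the start, and Rpl22 holds one near its upstream start and none near the downstream start. The tract of Rpl39l ends before the first base of the annotated transcript, so it lies outside the mRNA as annotated. Among canonical members with an entry, 19 had a tract that began within 10 bases of a start and 15 had none by this rule. A run of C and T that began further upstream and crossed the start, as in Rpl7a, was not counted as a tract. The 15 are thus not all free of such a run at the start. Median log2 fold changes of the 19 and the 15 were 0.11 and 0.08 for the siRNA at day 0, and -0.20 and -0.20 at day 4. For day 4 against day 0 in si-CTL cells they were 0.31 and 0.29. The match is of letters only.

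Together the 45 canonical mRNAs made up 9.28% ± 0.42 (SD, n = 3) of all TPM in si-CTL cells at day 0 without rescue and 9.99% ± 0.24 in si-Rsl24d1 cells. With rescue at day 0 the shares were 10.3% ± 0.42 and 10.7% ± 0.64. At day 4 without rescue the share was 11.8% ± 0.25 in si-CTL cells and 10.3% ± 0.85 in cells labelled si-Rsl24d1, and with rescue it was 10.4% ± 0.26 and 10.4% ± 0.15. The si-CTL cells without rescue thus held the lowest mean share at day 0 and the highest at day 4, and the 3 day 4 libraries of that group lay above all 21 others. Within the day 4 si-Rsl24d1 group, replicate 1 stood at 11.3% and the other 2 libraries at 9.88% and 9.71%. The proteins of the small subunit followed the same order in these 2 day 4 groups, 9.53% ± 0.17 and 8.52% ± 0.77, whereas transcripts of the mitochondrial genome were at 6.62% ± 0.20 and 7.82% ± 0.78. As TPM are shares, a higher share of some genes lowers that of others, and fewer cells of a type and less RNA per cell cannot be told apart in such bulk samples.

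**Figure D1:**
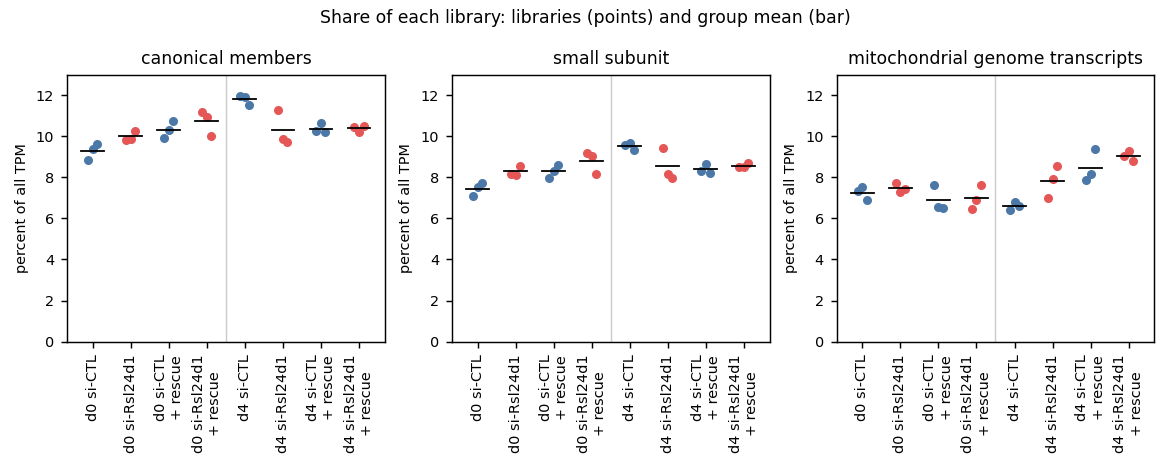
Percent of all TPM held by the canonical large subunit proteins, by the small subunit proteins and by transcripts of the mitochondrial genome (y axes) in each of 24 libraries (points, blue si-CTL, red si-Rsl24d1) and as group means (bars), by group (x axis). The 3 si-CTL libraries at day 4 without rescue have the highest canonical shares, around their mean of 11.8%.

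The first question was whether depletion of RSL24D1 in ESCs changes the mRNAs of the proteins of the subunit it helps to build. At day 0 without rescue, canonical members moved little: 4 of 45 passed as higher in si-Rsl24d1 cells and 3 as lower, with a median log2 fold change of 0.11. Over all tested genes, 14.3% passed as higher and 16.1% as lower, with a median of -0.01. Of the 45 changes 36 were above 0, and 22 had an unadjusted p below 0.05. Such counts by sign or unadjusted p, here and below, carry no share of all tested genes. No excess over all genes is read from them. No canonical member was differentially expressed by both thresholds, which 4.18% of tested genes were. The largest change by far was that of a paralog, Rpl22l1, which fell.

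Rpl22l1, a paralog of the RNA-binding protein Rpl22, stood at 9.12, 9.18 and 9.21 log2(TPM + 1) in the 3 si-CTL libraries and at 7.90, 7.82 and 7.84 in the 3 si-Rsl24d1 libraries at day 0 without rescue. All si-Rsl24d1 libraries were below all si-CTL libraries. The log2 fold change was -1.32 (standard error, SE, 0.11, limma adjusted p = 1.5e-08), from a mean of 576 ± 18.6 TPM to 230 ± 6.42 TPM. With rescue the si-CTL libraries were at 9.33, 9.34 and 9.63 and the si-Rsl24d1 libraries at 8.71, 8.69 and 8.41, again without overlap. There the siRNA effect was -0.83 (SE 0.11, limma adjusted p = 2.2e-05), and its level in si-Rsl24d1 cells was 0.75 higher with rescue (limma adjusted p = 1.0e-04). The si-CTL libraries with rescue also lay above all those without it. The siRNA effect was smaller with rescue, but the difference between the siRNA effects with and without rescue, 0.49, did not pass (SE 0.16, limma adjusted p = 0.091).

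At day 4 without rescue Rpl22l1 was at 9.77, 9.91 and 9.80 in si-CTL libraries and at 9.79, 9.29 and 9.27 in libraries labelled si-Rsl24d1, where replicate 1 lay within the si-CTL range. The difference of -0.38 did not pass (limma adjusted p = 0.011), and without that library it was -0.55 (limma adjusted p = 1.4e-04). Rpl22l1 rose from day 0 to day 4 by 0.66 in si-CTL cells (limma adjusted p = 4.1e-05) and by 1.59 in si-Rsl24d1 cells (limma adjusted p = 2.6e-10). The siRNA effect differed between the days by 0.94 (SE 0.16, limma adjusted p = 1.4e-04), the only siRNA by day interaction of any member past both thresholds.

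Rpl22, the parent, did not move in the same way. It was at 10.44, 10.59 and 10.62 with si-CTL and at 10.64, 10.61 and 10.69 with si-Rsl24d1 at day 0 without rescue. The groups overlapped and the change was 0.09 (SE 0.08, limma adjusted p = 0.40). Rpl22l1 TPM were 38.4% ± 1.34 of Rpl22 TPM with si-CTL and 14.4% ± 0.52 with si-Rsl24d1 at day 0 without rescue, and 39.8% ± 3.13 and 21.9% ± 0.62 with rescue. At day 4 the 4 group means of this ratio lay between 39.5% and 45.9%.

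**Figure D2:**
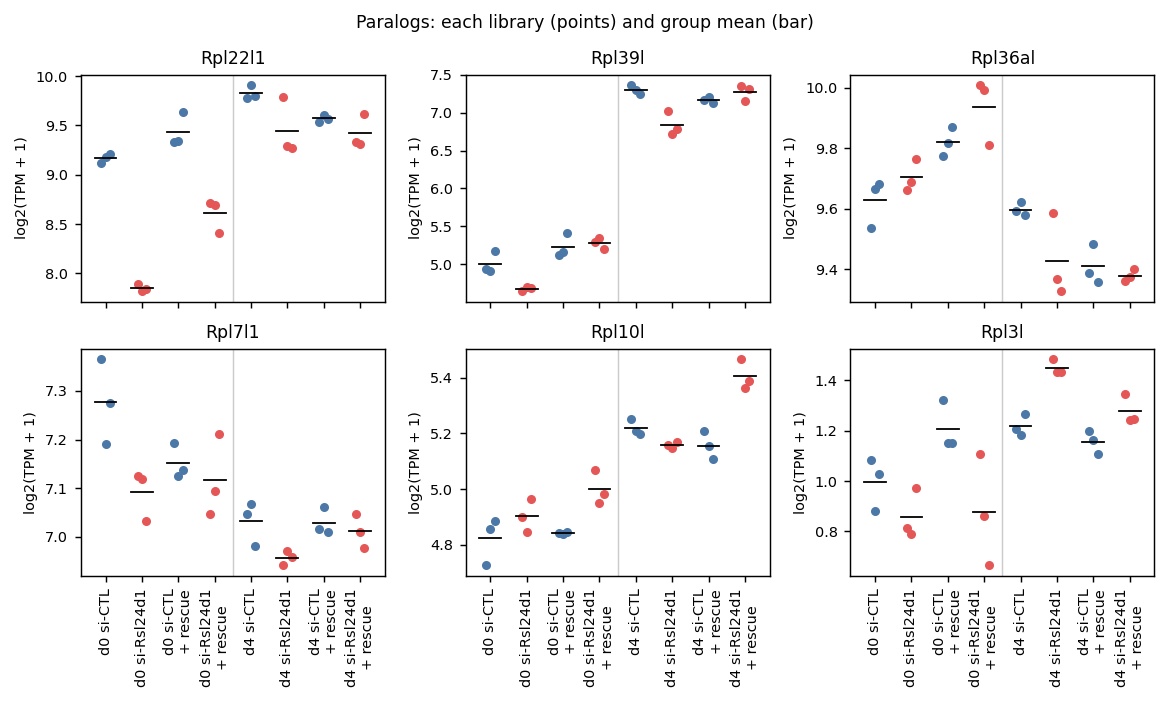
log2(TPM + 1) of the 6 paralogs (y axes, each with its own range) in the 24 libraries (points, blue si-CTL, red si-Rsl24d1), with group means (bars), by group (x axis, d0 is day 0 and d4 day 4). Rpl22l1 is lowest in the 3 si-Rsl24d1 libraries at day 0 without rescue, and Rpl39l is higher in all 12 day 4 libraries than in all 12 day 0 libraries.

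Rpl39l and Rpl7l1 also passed as lower with the siRNA at day 0, though not in every reading. Rpl39l, the paralog of the exit tunnel protein Rpl39, was at 4.93, 4.91 and 5.17 in si-CTL and at 4.64, 4.70 and 4.68 in si-Rsl24d1 libraries, a change of -0.33 (SE 0.08, limma adjusted p = 0.0033) without overlap. With rescue the si-CTL libraries were at 5.12, 5.16 and 5.41 and the si-Rsl24d1 libraries at 5.30, 5.35 and 5.20, which overlapped (change 0.05, limma adjusted p = 0.72). In si-Rsl24d1 cells it was 0.61 higher with rescue (limma adjusted p = 3.8e-05), while the interaction of siRNA and rescue, 0.38, did not pass (limma adjusted p = 0.067). Rpl39 itself, at 10.44, 10.55 and 10.54 against 10.70, 10.65 and 10.67 without rescue, did not pass although its libraries did not overlap (0.16, limma adjusted p = 0.23). The Rpl39l call at day 0 was lost when si-CTL replicate 3 (-0.25) or si-Rsl24d1 replicate 1 (-0.32) or 3 (-0.33) was left out, and with no filter, median of ratios scaling or only the groups compared.
Rpl7l1, related to Rpl7, was at 7.37, 7.19 and 7.28 in si-CTL and at 7.13, 7.12 and 7.03 in si-Rsl24d1 cells, a change of -0.18 (SE 0.04, limma adjusted p = 0.0023). The Rpl7l1 call was lost without si-CTL replicate 1 (-0.14) or si-Rsl24d1 replicate 3 (-0.16), and with only the groups compared. With rescue the change was -0.04 (limma adjusted p = 0.65). Rpl36al, a paralog of the interface protein Rpl36a, was 0.23 higher in rescued than in unrescued si-Rsl24d1 cells (limma adjusted p = 0.0080, lost in 5 of 6 omissions of 1 library, all but rescued replicate 3), and its siRNA effect of 0.08 without rescue did not pass (limma adjusted p = 0.34). Its 3 si-CTL libraries were at 9.54, 9.66 and 9.68, its si-Rsl24d1 libraries at 9.66, 9.69 and 9.76 and its rescued si-Rsl24d1 libraries at 10.01, 9.99 and 9.81.

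Rpl10l and Rpl3l did not pass for the siRNA at day 0. Rpl10l, the paralog of Rpl10, was at 4.73, 4.86 and 4.89 in si-CTL and 4.90, 4.84 and 4.96 in si-Rsl24d1 libraries without rescue (0.08, limma adjusted p = 0.18). Rpl3l was near the floor of the scale, with day 0 values without rescue of 1.08, 0.88 and 1.03 in si-CTL and 0.81, 0.79 and 0.97 in si-Rsl24d1 cells, about 1.00 ± 0.14 and 0.82 ± 0.13 TPM. Its groups overlapped, and 1 added to the TPM shrinks changes at this level.

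Among canonical members, the fall of Rpl3 was the largest. RPL3 is an early-joining protein that reaches into the peptidyl transferase centre. Its row read 7.94, 8.15 and 8.04 in si-CTL and 7.61, 7.44 and 7.51 in si-Rsl24d1 libraries at day 0 without rescue, with no overlap and a log2 fold change of -0.53 (SE 0.06, limma adjusted p = 8.9e-07). With rescue the values were 8.08, 7.99 and 8.15 against 7.79, 7.85 and 7.82, a change of -0.25 (limma adjusted p = 0.0050, lost in 5 of 6 omissions of 1 library, all but rescued si-CTL replicate 2). Rescued si-Rsl24d1 cells were 0.30 above unrescued ones (limma adjusted p = 0.0014). At day 4 without rescue the Rpl3 row was at 8.33, 8.33 and 8.43 against 8.36, 8.22 and 8.22, which overlapped (-0.09, limma adjusted p = 0.22), and the siRNA effect on this row differed between the days by 0.43 (limma adjusted p = 5.5e-04).

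How the table divides reads bears on Rpl3 and other members. Genes with near-identical coding sequence can share reads, and a search of the GRCm38 annotation (gencode vM21) found 350 genes in the table with at least 95% identity over at least 80% of a member's coding sequence, for 47 of the 51 members. In 16 members these copies held over 20% of the TPM of member and copies together, and in 10 members over 50%. The row of Rpl3 held 10.7% of that sum, and the annotated processed pseudogene Rpl3-ps1, identical in 99.8% of aligned bases, held nearly all the rest at a mean of 2326 TPM. Levels of such members are therefore uncertain as printed.

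Summed with its copies, Rpl3 was at 11.25, 11.30 and 11.28 in si-CTL and 10.70, 10.72 and 10.71 in si-Rsl24d1 libraries at day 0 without rescue. The fall was -0.56 with a smaller standard error of 0.02 (limma adjusted p = 1.7e-13), and with rescue it was -0.39 (SE 0.02, limma adjusted p = 1.8e-10). The fall of Rpl3 at day 0 was thus present in both readings. At day 4 without rescue the sum was at 11.64, 11.63 and 11.62 in si-CTL libraries. It was at 11.51, 11.52 and 11.49 in those labelled si-Rsl24d1, without overlap. This change of -0.12 (SE 0.02, limma adjusted p = 3.5e-04) passed, unlike that of the row. Rpl22l1 held 99.7% of the TPM of itself and its copies, and with copies added its day 0 change was -1.31.

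For Rpl5 the division of reads decided the call. RPL5 joins RPL11 and 5S rRNA in the 5S RNP, the particle that also binds MDM2 when ribosome assembly is disturbed. The Rpl5 row read 6.84, 6.77 and 6.80 in si-CTL and 6.62, 6.59 and 6.50 in si-Rsl24d1 libraries at day 0, and passed as lower (-0.23, SE 0.05, limma adjusted p = 4.2e-04). It held only 3.04% of the TPM of Rpl5 and its copies, of which Gm15500, with identical coding sequence, had a mean of 3084 TPM. With copies added the values were 11.35, 11.43 and 11.47 against 11.46, 11.50 and 11.45, which overlapped, and the change was 0.05 (SE 0.04, limma adjusted p = 0.37). Rpl11, which held 97.8% of the TPM of itself and its copies, was at 10.80, 10.88 and 10.91 against 10.88, 10.89 and 10.93 and did not pass (0.04, limma adjusted p = 0.66). Neither mRNA of the 5S RNP thus passed in both readings at day 0.

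Rpl12, at the base of the stalk, was the third canonical member that passed as lower (-0.19, SE 0.05, limma adjusted p = 0.0096), but its row held 3.98% of the TPM of its group of copies, and the sum changed by -0.09 (limma adjusted p = 0.15). The 4 members that passed as higher were Rpl10, Rpl36a, Rpl19 and Rpl23a. Rpl12 and Rpl23a are named because these sets are small, after their values were seen. Rpl10a and Rpl37, likewise named after their values were seen, passed with copies added though their own rows did not. Rpl10a then changed by -0.26 (SE 0.06, limma adjusted p = 0.0015) and Rpl37 by 0.24 (SE 0.06, limma adjusted p = 0.0046). RPL10 joins last, in the cytoplasm, and RPL36A also lies near the interface with the small subunit. Rpl10 was at 9.21, 9.21 and 9.30 against 9.41, 9.61 and 9.58 (0.29, SE 0.08, limma adjusted p = 0.0068). Its copies held most of the TPM, and the sum rose by 0.14 without passing (limma adjusted p = 0.017). Rpl36a was at 10.75, 10.86 and 10.92 against 11.06, 11.10 and 11.16 (0.26, limma adjusted p = 0.0054).
Rpl19 and Rpl23a, proteins around the exit tunnel, rose by 0.23 (limma adjusted p = 9.3e-05) and 0.22 (limma adjusted p = 0.0032). Rpl19 libraries were at 11.81, 11.88 and 11.89 in si-CTL and 12.07, 12.08 and 12.12 in si-Rsl24d1 cells. The calls of Rpl10 and of Rpl36a were each lost without si-CTL replicate 1 or 2 or si-Rsl24d1 replicate 2 or 3. When libraries were scaled by the median of ratios, 0 canonical members passed as higher in limma and 2 as lower.

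**Figure D3:**
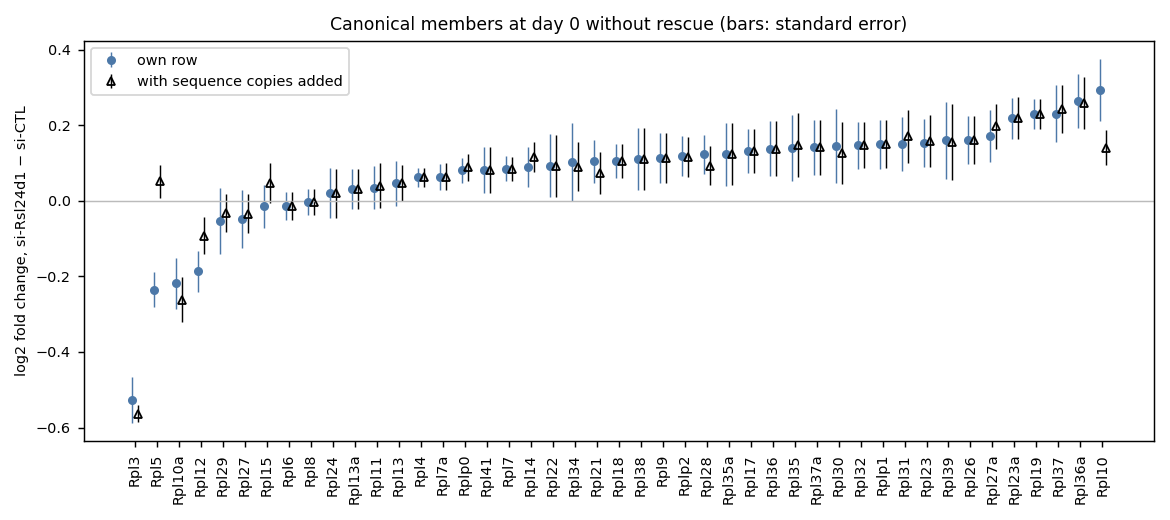
log2 fold change at day 0 without rescue (y axis, si-Rsl24d1 minus si-CTL, bars are standard errors) of each of the 45 canonical members (x axis), from the member's own row (filled circles) and with the TPM of its sequence copies added (open triangles). Rpl3 lies lowest in both readings, whereas Rpl5 moves from -0.23 to 0.05.

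**Figure D4:**
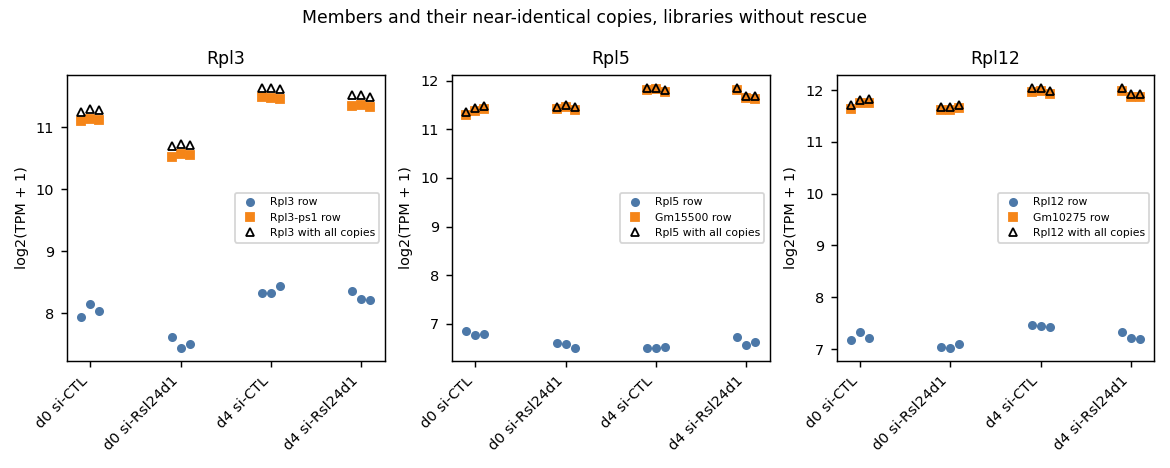
log2(TPM + 1) (y axes) of Rpl3, Rpl5 and Rpl12, of the largest near-identical copy of each and of the member with all copies added, in the 12 libraries without rescue (x axis, 3 libraries per group). The Rpl3 row, the Rpl3-ps1 row and their sum are all lower in the 3 si-Rsl24d1 libraries at day 0, and the Rpl5 row is lower while its sum is not.

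Rpl24, the protein exchanged for RSL24D1, was at 10.46, 10.53 and 10.59 in si-CTL and 10.54, 10.52 and 10.58 in si-Rsl24d1 libraries at day 0 without rescue. The libraries overlapped and the change was 0.02 (SE 0.07, limma adjusted p = 0.83). Rpl8, a core protein of the subunit, was at 11.55, 11.60 and 11.61 against 11.57, 11.54 and 11.63 and also overlapped, with a change of 0.00 at this rounding (SE 0.03, limma adjusted p = 0.95). Neither thus differed by more than the spread between replicates.

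With rescue at day 0, 0 canonical members passed as higher and 3 as lower by limma (12 of 45 had a change below 0, and 8 had an unadjusted p below 0.05), against 8.1% and 5.64% of tested genes. The 3 were again the rows of Rpl3, Rpl5 and Rpl12. With copies added Rpl3 still passed (-0.39), whereas Rpl5 (-0.04, limma adjusted p = 0.60) and Rpl12 (-0.09, limma adjusted p = 0.20) did not. Between rescued and unrescued si-Rsl24d1 cells, 1 canonical member passed as higher (Rpl3) and 0 as lower, against 3.06% and 12.2% of tested genes, and 19 had an unadjusted p below 0.05. In si-CTL cells, rescue gave 0 canonical members in either direction by limma. There 33 of 45 had an unadjusted p below 0.05 and 43 were higher with rescue, again without the share of all genes. Of all tested genes, 0% passed as higher and 0.0122% as lower there. The median change in that comparison was 0.16 for canonical members and -0.12 for all tested genes. The interaction of siRNA and rescue at day 0 passed in 0 canonical members (1 had an unadjusted p below 0.05), against 0.906% higher and 1.18% lower genes.

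At day 4 more members passed. Without rescue, 19 of 45 canonical members passed as lower in cells labelled si-Rsl24d1 and 0 as higher, 43 of 45 changes were below 0, and the median was -0.20. Of all tested genes, 6.04% passed as lower and 24.9% as higher, with a median of 0.13. Passing members came from every role: 1 of 2 of the 5S RNP, 2 of 4 of the stalk, 2 of 5 late-joining or interface proteins, 4 of 9 around the exit tunnel and 10 of the other 25. Canonical changes ran from -0.33 to 0.13, and none reached 1.8-fold. Marker sums also differed between these groups: means in si-CTL cells and cells labelled si-Rsl24d1 were 82.6 and 160.9 TPM for 5 fibroblast markers, 21.0 and 43.5 TPM for 5 of primitive endoderm and 19.1 and 28.9 TPM for 4 neuronal ones. Of the fibroblast markers, Col1a1 differed most on the log2(TPM + 1) scale (5.23 and 6.68) and Thy1 least (1.45 and 1.52). The part of all these markers in the falls was not tested.

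Rpl41, a tiny basic protein at the subunit interface, was at 12.32, 12.26 and 12.22 in si-CTL and 12.02, 11.94 and 11.86 in libraries labelled si-Rsl24d1 (-0.33, SE 0.06, limma adjusted p = 3.2e-04). Rplp2, an acidic protein of the stalk that recruits elongation factors, was at 10.99 in all 3 si-CTL libraries and at 10.76, 10.61 and 10.63 in the others (-0.33, SE 0.05, limma adjusted p = 9.0e-05). Rpl39l was at 7.37, 7.29 and 7.25 against 7.02, 6.71 and 6.79, the largest fall of any member (-0.46, SE 0.08, limma adjusted p = 2.6e-04). None of these 3 overlapped between the groups. Rpl11 (11.17, 11.18 and 11.13 against 11.06, 10.84 and 10.82) and Rpl8 (11.60, 11.58 and 11.52 against 11.47, 11.40 and 11.39) also passed as lower, by -0.25 and -0.15. The Rpl11 call was lost without si-Rsl24d1 replicate 2 or 3, and the Rpl8 call without either of these or si-CTL replicate 1 or 2. Rpl24 did not pass (-0.17, limma adjusted p = 0.037), with replicate 1 of the si-Rsl24d1 group, at 10.81, level with the si-CTL libraries at 10.78, 10.81 and 10.76.

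The count of 19 comes from the fit of all 8 groups, and a limma fit of these 6 libraries alone gave 0, with the Rpl39l call lost as well. In the fit of all 8 groups the count was 36 without si-Rsl24d1 replicate 1, 8 and 5 without si-Rsl24d1 replicates 2 and 3, and 9 without either si-CTL replicate 1 or 2. With rescue at day 4, 0 canonical members passed in either direction by limma and 0 had an unadjusted p below 0.05, with a median of 0.00, against 2.33% higher and 3.53% lower genes. Within cells labelled si-Rsl24d1, rescue gave 0 passing canonical members (3 with an unadjusted p below 0.05), against 0.936% higher and 4.23% lower. Within si-CTL cells, rescue gave 6 lower canonical members and 0 higher, against 1.34% lower and 8.85% higher genes, with a median of -0.20. The 2 comparisons with a median of -0.20 share the si-CTL libraries without rescue, the group whose ribosomal protein share was highest. The interaction of siRNA and rescue at day 4 passed as higher in 2 canonical members, Rpl18 and Rplp2 (lost in 5 of 12 omissions for Rplp2), and in 0 as lower, against 0.699% and 8.25%.

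Rpl39l in rescued libraries labelled si-Rsl24d1 was at 7.35, 7.15 and 7.31, which is 0.43 above the unrescued ones (limma adjusted p = 0.0023), and the siRNA effect differed with rescue by 0.57 (SE 0.12, limma adjusted p = 0.0039). The call of this interaction was lost in 8 of 12 omissions of 1 library and that of the rescue effect in 4 of 6, with changes from 0.50 to 0.66 and from 0.37 to 0.52. Rpl10l was at 5.25, 5.21 and 5.20 in si-CTL and 5.16, 5.15 and 5.17 in si-Rsl24d1 libraries without rescue, and at 5.21, 5.15 and 5.11 against 5.47, 5.36 and 5.39 with rescue. It passed as higher with rescue (0.25, limma adjusted p = 9.8e-04), and its interaction passed as well (0.31, limma adjusted p = 0.0036, lost in 5 of 12 omissions). Rpl3l, at 1.21, 1.18 and 1.27 against 1.48, 1.43 and 1.43, did not pass (0.23, limma adjusted p = 0.042).

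The siRNA effect differed between day 0 and day 4 without rescue in 23 canonical members. It was lower at day 4 in 21 and higher in 2 (Rpl3 and Rpl5, and 0 under median of ratios scaling), against 8.83% and 22.1% of tested genes, with a median of -0.33 for canonical members. With copies added Rpl5 turned to -0.15 and did not pass (limma adjusted p = 0.052), while Rpl3 was at 0.44 and passed.

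**Figure D5:**
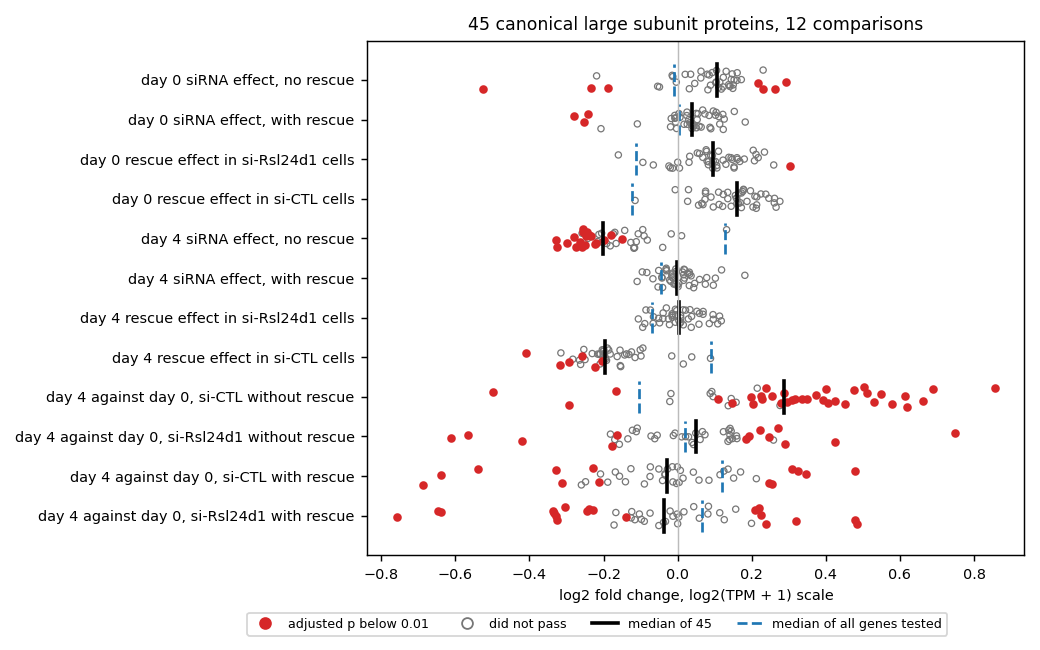
log2 fold changes on the log2(TPM + 1) scale (x axis) of the 45 canonical members in 12 comparisons (y axis), filled where the adjusted p was below 0.01, with the median of the 45 (black line) and of all tested genes (dashed line). In si-CTL cells without rescue, 32 members passed as higher at day 4 than at day 0, while the siRNA at day 4 without rescue gave 19 members that passed as lower.

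The remaining comparisons asked how the members change during RA treatment. In si-CTL cells without rescue, 32 of 45 canonical members passed as higher at day 4 and 3 as lower (Rplp0, Rpl5 and Rplp2), with a median of 0.29. Of all tested genes, 24.1% passed as higher and 36.7% as lower, with a median of -0.10. Members around the exit tunnel had a median of 0.58, and 8 of 9 passed as higher. Of the late-joining or interface proteins 4 of 5 passed as higher (median 0.25), and of the other 25 members 17 did (median 0.28). The stalk was divided, with 2 members higher and 2 lower. Only Rpl17 among canonical members, and Rpl39l among paralogs, were differentially expressed by both thresholds, which 15% of tested genes were. The change of Rpl17, 0.855, lay close to the threshold of 0.848. It ranged from 0.811 to 0.886 when 1 library was left out, so its place past 1.8-fold was not kept in every omission.

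The other 3 comparisons of day 4 with day 0 use other libraries and had medians near 0. In si-Rsl24d1 cells without rescue 8 canonical members passed as higher and 5 as lower (median 0.05), against 29.4% and 26.4% of tested genes. In si-CTL cells with rescue 6 passed as higher and 7 as lower (median -0.03), against 36.8% and 22.4%. In si-Rsl24d1 cells with rescue 7 passed as higher and 12 as lower (median -0.04), against 32.4% and 25.8%. Under median of ratios scaling the counts higher and lower were 34 and 1 in si-CTL cells without rescue, 3 and 3 in unrescued si-Rsl24d1 cells, 2 and 13 in rescued si-CTL cells and 3 and 12 in rescued si-Rsl24d1 cells.

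A smaller set moved the same way in all 4 comparisons, which share no library. Rpl3, Rpl4, Rpl17, Rpl26, Rpl32, Rpl10l and Rpl39l passed as higher in all 4, and Rplp0 and Rplp2 as lower, against 16.8% and 14.8% of tested genes. Rpl4 and Rpl32 are named after their values were seen. The 7 of 51 members higher in all 4 are a share near that of all genes. With median of ratios scaling only Rpl17, Rpl4 and Rpl39l passed as higher in all 4 and Rplp0 as lower. Rpl26 and Rpl32 were also lost with no filter and with only the groups compared, and Rplp2 with no filter and with a replicate block.

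Rpl39l rose most. Its day 0 libraries were at 4.93, 4.91 and 5.17 in si-CTL cells without rescue and its day 4 libraries at 7.37, 7.29 and 7.25. The log2 fold change was 2.30 (SE 0.08, limma adjusted p = 9.5e-15), from 31.2 ± 3.34 TPM to 157 ± 6.42 TPM. In the other 3 comparisons it rose by 2.17, 1.94 and 1.99, and all 12 day 4 libraries lay above all 12 day 0 libraries. Rpl39l had no near-identical copy in the annotation. Rpl39 was at 11.15, 11.21 and 11.16 at day 4 in si-CTL cells without rescue, a rise of 0.66 (SE 0.10, limma adjusted p = 8.8e-06), and passed in none of the other 3. Even so Rpl39l stayed the minor form by TPM, going from 2.14% ± 0.21 of Rpl39 at day 0 to 6.81% ± 0.39 at day 4.

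Rpl17, which lines the exit tunnel, was at 11.00, 11.12 and 11.15 at day 0 and 11.98, 11.96 and 11.90 at day 4 in si-CTL cells without rescue (0.86, SE 0.06, limma adjusted p = 1.2e-10). Its rises in the other comparisons were 0.42, 0.48 and 0.48. Rpl26, its neighbour at the tunnel, was at 11.87, 12.01 and 11.99 against 12.68, 12.66 and 12.59 (0.69, limma adjusted p = 8.7e-09) and rose by 0.25, 0.35 and 0.22 in the others. Rpl3 rose by 0.32, 0.75, 0.33 and 0.48 in si-CTL, si-Rsl24d1, rescued si-CTL and rescued si-Rsl24d1 cells.

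Rplp0, the scaffold of the stalk to which the acidic proteins bind, fell. It was at 10.63, 10.71 and 10.70 at day 0 and 10.22, 10.18 and 10.16 at day 4 in si-CTL cells without rescue (-0.50, SE 0.03, limma adjusted p = 9.3e-11). In the other 3 comparisons it fell by -0.57, -0.64 and -0.64, and summed with its copies it fell by -0.48 in si-CTL cells. Rplp2 was at 11.11, 11.18 and 11.19 at day 0 and 10.99 in each day 4 library of the same cells (-0.17, limma adjusted p = 0.0085), and fell by -0.61, -0.69 and -0.76 in the others. The Rplp2 call in si-CTL cells was lost in 5 of 6 omissions of 1 library, all but day 0 replicate 1, and under median of ratios scaling its change there was -0.03. Rplp1, its partner, gave 0.20 in si-CTL cells without rescue and -0.16, -0.17 and -0.24 in the others. Rplp1 passed as higher in the first, at the threshold (limma adjusted p = 0.010), and as lower in rescued si-Rsl24d1 cells.

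Rpl5 passed as lower at day 4 in si-CTL cells without rescue (6.84, 6.77 and 6.80 against 6.50, 6.50 and 6.53, -0.29, limma adjusted p = 1.4e-05). With its copies added it turned to a rise of 0.42 (SE 0.04, limma adjusted p = 4.2e-08), so its direction depends on how the reads are divided. Rpl11 rose by 0.29 (limma adjusted p = 1.1e-04) and Rpl24 by 0.25 (10.46, 10.53 and 10.59 against 10.78, 10.81 and 10.76, limma adjusted p = 0.0019) in these cells, and neither passed in the other 3 comparisons. Rpl8 did not pass in si-CTL cells without rescue (-0.02) and passed as lower in the other 3 (-0.16, -0.31 and -0.33).

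Of the other paralogs, Rpl7l1 fell in si-CTL cells without rescue from 7.37, 7.19 and 7.28 to 7.05, 7.07 and 6.98 (-0.24, limma adjusted p = 6.7e-05). Rpl10l rose by 0.40, 0.26, 0.31 and 0.41 in the 4 comparisons. Rpl36al was level in si-CTL cells without rescue (-0.03, limma adjusted p = 0.68) and fell by -0.28, -0.41 and -0.56 in the other 3. Rpl36a rose by 0.55 in si-CTL cells without rescue, and Rpl36al TPM as a share of Rpl36a TPM went from 43.0% ± 0.78 to 28.8% ± 0.67 there and from 41.5% ± 0.98 to 30.5% ± 0.89 in rescued si-Rsl24d1 cells. Rpl3l rose by 0.59 in si-Rsl24d1 cells without rescue (limma adjusted p = 9.2e-06) and by 0.40 in rescued si-Rsl24d1 cells (limma adjusted p = 6.2e-04), remaining under 2 TPM in every group mean.

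Related lists are read against the shares of all tested genes that passed as higher and lower, 14.3% and 16.1% for the siRNA at day 0 without rescue, 24.9% and 6.04% at day 4, and 24.1% and 36.7% for day 4 against day 0 in si-CTL cells. Of 34 small subunit proteins, 8 passed as higher and 1 as lower with the siRNA at day 0 without rescue (median 0.16), 0 and 11 at day 4 (median -0.16), and 26 and 2 at day 4 against day 0 in si-CTL cells without rescue (median 0.37). Rps27l, a p53-responsive paralog of Rps27, rose by 0.56 at day 0 (limma adjusted p = 5.4e-06). Of 21 factors of pre-60S maturation, 7 including Rsl24d1 passed as lower and 1 as higher with the siRNA at day 0 (median -0.13). Dnajc21, a cochaperone of late 60S maturation, fell by -0.45 and the assembly GTPase Gtpbp4 by -0.39. From day 0 to day 4 in si-CTL cells 19 of these 21 factors passed as lower and 1 as higher (median -0.52), led by Rrs1 (-1.17), which brings the 5S RNP to the pre-60S particle.
Of 16 other mRNAs with TOP tracts, 3 passed as higher and 5 as lower with the siRNA at day 0 (median -0.08), and 3 and 7 at day 4 against day 0 (median -0.12). Of 49 proteins of the mitochondrial large subunit, 2 passed as higher and 20 as lower with the siRNA at day 0 (median -0.13).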

How the data were processed

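RNA-seq of CGR8 cells was deposited as 1 table of log2 values, log2(TPM + 1), in which the authors added 1 to TPM made from reads by Salmon and gathered per gene with tximport. The labels give poly-A libraries and the methods a total RNA kit, so the library type is uncertain. The submitters' processing notes name Salmon 1.4.0, STAR 2.7.8a and the human build GRCh38, and the methods of the study name other versions and a mouse index, so the version used is uncertain. TPM sum to 1000000 per library. Depth is unknown, no counts are kept, and precision rests on 3 libraries per group. Groups were read from the sample titles.

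Genes with a mean of at least 0.5 (16447) were fitted with limma 3.58.1 in R 4.3.3, with 8 group means, an intensity trend, no replicate term and Benjamini-Hochberg adjustment within each comparison. Tests are two-sided. An exact permutation test of 3 against 3 cannot go below p = 0.1. Scripts were tested on simulated data. No 2 libraries were identical.

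Per-library values are given for Rpl24, Rpl8, Rpl5, Rpl11, each paralog and its parent where described, and the 3 members that rose or fell most among those passing, in 3 comparisons (the siRNA effect on each day without rescue, and day 4 against day 0 in si-CTL cells without rescue). The members and lists were chosen with earlier results of these data known. Copies were found with blastn 2.17.0 in gencode vM21 (GRCm38), and their addition was chosen after seeing the data. Alternatives were 0.1 or 2 added to TPM, no filter, a mean of at least 1.5, only the groups compared, a replicate block, median of ratios scaling, pseudogenes named after a member added, and each library left out.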

Additional observations from a re-analysis of the deposited data

Results flagged for a closer look

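The effect of the siRNA on Rpl22l1 differed between the days. It was -1.32 at day 0 and -0.38 at day 4 without rescue, and the test of the difference itself gave 0.94 on the log2 scale (SE 0.16, limma adjusted p = 1.4e-04). Omitting any 1 of the 12 libraries, it lay between 0.77 and 1.02. Rsl24d1 mRNA was 5.20 ± 0.11 against 7.15 ± 0.06 at day 0, and 6.59 ± 0.08 against 6.63 ± 0.04 at day 4. The part of these levels in the difference was not tested.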

How the results depend on the processing

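With 0.1 or 2 added to TPM, or a mean of at least 1.5, the 15 counts of passing canonical members stayed within 1.5 times. The cause of the other changes below was not tested. With no filter the counts were 3 for the siRNA at day 0, 1 for it with rescue, 10 for the siRNA at day 4, 2 for rescue in si-CTL cells at day 4, 0 for the interaction of siRNA and rescue at day 4 and 14 for that of siRNA and day. With limma on only the groups compared they were 1 for the siRNA with rescue at day 0, 0 for rescue in si-Rsl24d1 cells at day 0, 0 for the siRNA at day 4, 13 for rescue in si-CTL cells at day 4, 6 for day 4 against day 0 in si-Rsl24d1 cells, 0 for the siRNA and rescue interaction at day 4 and 15 for siRNA and day. With median of ratios scaling they were 2 for the siRNA at day 0, 1 with rescue, 2 for rescue in si-Rsl24d1 cells at day 0, 11 for rescue in si-CTL cells at day 4 and 6 for day 4 against day 0 in si-Rsl24d1 cells. The same scaling shifted the median of all genes by -0.13 for the siRNA at day 4 and by 0.10 for day 4 against day 0 in si-CTL cells. Canonical medians became 0.23 and 0.31 for rescue at day 0 in si-Rsl24d1 and si-CTL cells, -0.37 for the siRNA at day 4, 0.079 and -0.33 for rescue at day 4 in si-Rsl24d1 and si-CTL cells, 0.42 for day 4 against day 0 in si-CTL cells, -0.18 and -0.12 in rescued si-CTL and si-Rsl24d1 cells, 0.42 for siRNA and rescue at day 4 and -0.48 for siRNA and day. With pseudogenes named after a member added, or sequence copies added, the siRNA with rescue at day 4 gave 1 and the interaction of siRNA and rescue at day 0 gave 1. With sequence copies the siRNA with rescue at day 0 gave 1, and Rpl5 reversed to 0.051 for the siRNA at day 0, 0.42 for day 4 against day 0 in si-CTL cells and -0.15 for siRNA and day.

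Leaving out 1 library gave counts of 3 to 6 for the siRNA at day 0 (3 without si-Rsl24d1 replicate 2 or 3, 4 without si-CTL replicate 1 or 2) and 1 to 2 with rescue (1 without rescued si-CTL replicate 3). Rescue in si-Rsl24d1 cells at day 0 gave 0 (without unrescued replicate 2) to 6 (without rescued replicate 3). The siRNA at day 4 gave 5 to 36 with medians of -0.28 to -0.15. Rescue in si-CTL cells at day 4 gave 1 to 6 (1 and 2 without unrescued replicates 1 and 2, 2 without rescued replicate 1 or 3). The interaction of siRNA and rescue at day 4 gave 0 to 19 with medians of 0.16 to 0.28, and only 2 of its 12 omissions left the count within 1.5 times. The interaction of siRNA and day gave 14 (without day 0 si-CTL replicate 1) to 37, and 15 without day 0 si-Rsl24d1 replicate 3 or day 4 si-Rsl24d1 replicate 2 or 3. The counts of 36, 19 and 37 all came without day 4 si-Rsl24d1 replicate 1. Medians ranged from -0.040 to 0.080 for rescue in si-Rsl24d1 cells at day 4, from -0.041 to 0.098 for day 4 against day 0 in si-Rsl24d1 cells and from -0.12 to -0.0020 in rescued ones. Rpl24 at day 0 ranged from -0.011 (without si-CTL replicate 1) to 0.050. Rpl8 at day 0 ranged from -0.030 to 0.016 and was 0.0046 and 0.0070 without si-CTL replicates 2 and 3, and 0.0024 and 0.016 without si-Rsl24d1 replicates 1 and 2.

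Replicate numbers gave no sign of a pairing of the samples. Residuals of libraries with the same number correlated at -0.02 on average (from -0.22 to 0.17, 84 pairs). The average for other numbers, 0.01, is tied to the first because group means were removed, so it is no separate comparison. An average cannot exclude a pairing of some of the libraries. With a replicate block 6 canonical members passed for the siRNA at day 0, 15 for the siRNA at day 4 and 33 for day 4 against day 0 in si-CTL cells, and all 15 counts stayed within 1.5 times. Of 98 named member values, the call was lost in 5 with the block, 28 with only the groups compared, 18 with median of ratios scaling, 12 with no filter, 2 with sequence copies and 1 with pseudogenes added. Leaving out 1 library lost 82 such calls and kept 578 values on the same side and direction.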
